A study of Homo sapiens with 6 samples.

Results

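The genes described here are 49 symbols of the autophagy and lysosome pathway, fixed by name with earlier results of these data known. They were looked up in the gene table deposited for 6 RNA sequencing libraries of HCT116 cells. Of the 49, 48 were found by their symbol among 14987 listed genes. ATG101 was not found under that name and is listed under its older symbol C12orf44, so its values are given apart from the counts. The study asked how the coactivator YAP shapes the expression that glucose deprivation brings about. HCT116 is an established human colorectal carcinoma line. The NC cells, wild type by label, were sequenced once in control medium and once after 6 h without glucose. The YAP knockdown cells carried the construct shYAP1 or shYAP3, and each was sequenced once in the same 2 media with the same time, which makes 2 knockdown libraries per medium. Whether a shYAP line was 1 clone or a pool, and how long the control cells were cultured, was not given in the sources used here. Each line thus gave 1 library per medium, no label names separate cultures, and p-values measure only the spread between these libraries, which may be technical in part.

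Macroautophagy encloses cytoplasm in a double membrane, the autophagosome, and delivers it to the lysosome for breakdown. The ULK kinase complex starts the process, a phosphatidylinositol 3-kinase complex marks the membrane, lipid carriers extend it, and a ubiquitin-like conjugation system attaches ATG8 proteins (the LC3 and GABARAP families) to it. Cargo receptors bind both cargo and ATG8 proteins, and the MiT/TFE transcription factors TFEB, TFE3 and MITF drive many lysosomal and autophagy genes when nutrients are short.

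A library held between 16912634 and 22161075 listed reads. The deposited values are normalized read counts, and whole reads could be recovered from 100% of them. A single read was worth 0.0406 to 0.0454 in the control libraries and 0.0532 to 0.0693 in the deprived ones, so the same number of reads carries a higher value in a deprived library. The shYAP3 deprived library stood apart by transcript length: its genes of the shortest length decile had a median log2 deviation of 0.44 from the mean of the 6 libraries, and those of the longest decile one of −0.29. The same medians also differed between media. They were −0.19 to −0.15 and 0.10 to 0.12 in the control libraries. In the deprived libraries they were −0.07 and 0.05 for NC and 0.14 and −0.08 for shYAP1. Of 6 epithelial markers, EPCAM stood at 202 to 354, KRT8 at 1642 to 3250, KRT18 at 663 to 1666, CDH1 at 55.1 to 91.9 and KRT20 at 2.95 to 9.01 in the 6 libraries. CDX2 was at 11.9 to 14.2 in control medium and at 5.75 to 8.78 in deprived cells (log2 −0.81, limma adjusted p = 0.0077), whereas EPCAM, KRT8 and KRT18 were called higher (log2 0.52 to 0.65) and CDH1 and KRT20 did not pass. Of markers of other cell types, PTPRC, COL1A2, DCN and PECAM1 are not listed, VWF reached at most 0.974, CD68 lay at 4.80 to 15.9 and COL1A1 at 2.98 to 10.1. After deprivation CD68 was called higher (log2 0.71, limma adjusted p = 0.0499) and COL1A1 lower (−0.75, 0.037). The part of these markers in the members' results was not tested. YAP1 was measured at 188 in NC cells against 35.7 and 38.2 in shYAP1 and shYAP3 cells in control medium, and deprivation left it at 154 against 20.3 and 18.2.

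After 6 h without glucose, transcripts of 3 of 4 tested ATG8 genes, of all 5 cargo receptors and of 4 of 10 conjugation genes rose, while PIK3R4 and ATG9A fell. MAP1LC3A was not tested, having 1 and 3 reads in the NC control and deprived libraries and 0 in the other 4, where a count of 0 allows a value of up to 0.122 to 0.208. The test was limma, which fits a linear model to log2(value + 1) of every gene and shares the estimate of spread among genes, with a call at a Benjamini-Hochberg adjusted p under 0.05 over all genes. Of the 47 members tested with limma, 22 (46.8%) were higher after deprivation, 2 (4.26%) were lower and 23 passed in neither direction. Among all 12263 genes tested, 16.5% were higher and 15.6% lower. The members' median log2 change was 0.40 against 0.05 for all genes. All deprived libraries lay above all control libraries in 26 of the 47 members and below them in 4, against 26.8% and 23.8% of all genes. The members together took 0.262% to 0.274% of the listed reads in the control libraries and 0.317% to 0.328% in the deprived libraries, with no overlap between the media.

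The counts depended on the scaling. With each library scaled to the same total of listed values, the median of all genes moved from 0.05 to −0.24, and 10 members were higher and 4 lower (background 6.11% and 31% of all genes). The members' median lay 0.35 above that of all genes as deposited and 0.34 above it when rescaled. The 10 members that were higher under both scalings were MAP1LC3B, GABARAPL1, NBR1, OPTN, TAX1BP1, CALCOCO2, RB1CC1, VMP1, ATG12 and ATG5. Those 10 also passed in every other analysis that used all 6 libraries, edgeR on whole reads included, where 19 members were higher and 2 lower (15.1% and 16.2% of all genes). The other 12 each lost the call when rescaled, and ATG4A, GABARAP, NPC1, NPC2, PIK3C3, SQSTM1 and UVRAG lost it in at least 1 further analysis with all 6 libraries. Of the 22, 8 passed without each library in turn: the 10 just named except RB1CC1 and ATG5. At most 3.86% of all genes can have done so as higher, the share without the shYAP3 control library. Without the shYAP3 deprived library 28 members were higher and 3 lower, with 23.4% and 19.8% of all genes. Without the shYAP1 deprived library 22 were higher and 5 lower, with 21.4% and 19.4% of all genes. The 2 runs without an NC library took the response from the shYAP libraries alone and gave the same log2 changes. Without the NC control, the NC deprived, the shYAP1 control or the shYAP3 control library 9 or 10 were higher and 0 lower, and all genes gave 5.62%, 5.64%, 4.59% and 3.86% higher and 5.9%, 5.9%, 4.79% and 5% lower in that order.

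**Figure D1:**
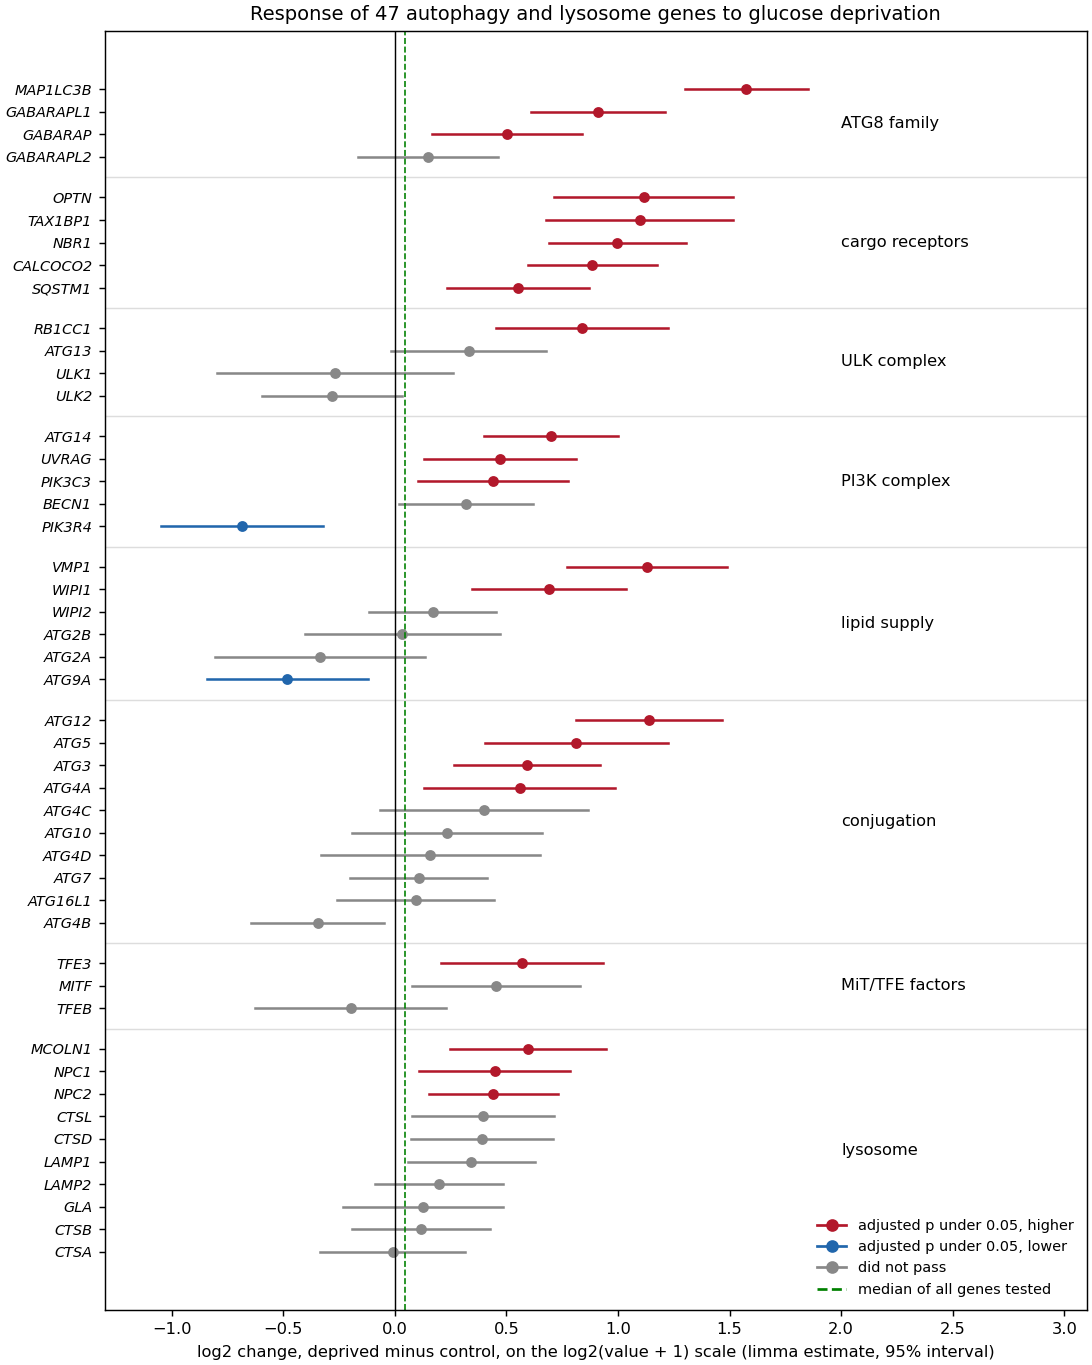
Log2 change after glucose deprivation (deprived minus control, log2(value + 1) scale, limma) for the 47 members tested, grouped by role; points are estimates over 3 libraries per medium, bars 95% intervals, and the dashed line the median of all 12263 genes tested. All 5 cargo receptors lie to the right of 0 with intervals that do not reach it, and PIK3R4 and ATG9A are the members called lower.

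In the ATG8 family, whose members are attached to the autophagosome membrane, MAP1LC3B (LC3B, ENSG00000140941) had the largest change of all members. Values of the 3 lines are given in the order NC, shYAP1 and shYAP3. MAP1LC3B stood at 73.0, 65.5 and 65.1 in control medium and at 215, 202 and 195 in deprived cells. The media are far apart and the 3 lines close to each other within each, with means of 67.9 ± 4.48 and 204 ± 9.79 (SD, n = 3 libraries). This is a 2.98-fold rise on the log2(value + 1) scale (log2 1.57, SE 0.12, limma adjusted p = 0.00015). Its recovered reads went from 1432 to 1660 per control library to 2820 to 4035 per deprived library. GABARAPL1 (ENSG00000139112), a GABARAP-type ATG8 protein, rose from 22.2, 23.2 and 23.7 to 37.9, 48.3 and 46.9 (log2 0.91, SE 0.13, limma adjusted p = 0.0023), with NC the lowest of the deprived libraries. GABARAP (ENSG00000170296), the founding member of that branch, was at 97.1, 96.2 and 96.0 in control medium and at 112, 138 and 166 in deprived cells. The controls lie close together and the deprived libraries are spread above them (log2 0.50, SE 0.15, limma adjusted p = 0.032). GABARAP did not pass when rescaled to listed values (log2 0.20, adjusted p = 0.29), with length and GC trends removed (0.25, 0.070) or with quantile normalization (0.33, 0.085), nor without any 1 of the 2 NC and the 2 shYAP control libraries (limma adjusted p 0.055 to 0.17). GABARAPL2, the fourth ATG8 gene tested, did not pass (log2 0.15, limma adjusted p = 0.43) and overlapped between the media.

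MAP1LC3B2, a near-identical copy of MAP1LC3B, stood at 0.484, 0.609 and 0.818 in control medium and at 1.86, 1.80 and 1.59 in deprived cells. It was also called higher (log2 0.75, limma adjusted p = 0.011), and reads of the copies may have been divided between them, so its value is uncertain. It missed the threshold when 1 library was left out, with a limma adjusted p of up to 0.072.

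All 5 cargo receptors rose, against 16.5% of all genes. Their deprived libraries all lay above the controls, which held for 26.8% of all genes. Together the 5 receptors took 0.0581% to 0.0596% of listed reads in control medium and 0.0776% to 0.0883% after deprivation. NBR1 (ENSG00000188554), a receptor for ubiquitinated cargo, was at 63.2, 71.2 and 73.1 in control medium and at 123, 131 and 165 in deprived cells (log2 0.998, SE 0.14, limma adjusted p = 0.0019). OPTN (optineurin, ENSG00000123240), which takes part in the removal of damaged mitochondria and bacteria, was at 17.6, 15.6 and 16.1 and then at 30.2, 34.4 and 47.6 (log2 1.12, SE 0.18, limma adjusted p = 0.0034). TAX1BP1 (ENSG00000106052), a ubiquitin-binding receptor, was at 75.4, 105 and 86.8 and then at 149, 170.1 and 269.8 (log2 1.10, SE 0.19, limma adjusted p = 0.0043). In all 3 genes the shYAP3 deprived library was the highest. CALCOCO2 (NDP52, ENSG00000136436), a receptor for bacteria and mitochondria, was at 65.4, 61.3 and 63.3 and then at 124, 107 and 123 (log2 0.89, SE 0.13, limma adjusted p = 0.0023). Here the shYAP3 library did not stand out, and the spread within a medium was small beside the gap between media.

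SQSTM1 (p62, ENSG00000161011), the receptor that autophagy itself degrades, had the highest level per length of all members. Its mean was 92.9 per kb of transcript in control medium and 137 per kb after deprivation, against 22.0 and 66.1 per kb for MAP1LC3B and 4.67 and 10.6 per kb for OPTN. The SQSTM1 values were 293, 283 and 256 in control medium and 363, 429.7 and 430.6 after deprivation, which do not overlap. The rise was 1.47-fold (log2 0.55, SE 0.14, limma adjusted p = 0.019). It was the smallest of the 5 receptors and the one that did not pass when rescaled to listed values (log2 0.24, adjusted p = 0.17) or with quantile normalization (0.25, 0.13). Its recovered reads, 5643 to 6969 in control and 6213 to 7398 in deprived libraries, overlapped, but they are not corrected for library depth. Fitted with edgeR, which corrects for depth, the same reads called SQSTM1 higher (log2 0.52, edgeR adjusted p = 0.023). It also missed the threshold without the NC control (limma adjusted p = 0.051), the shYAP1 control (0.10) or the shYAP3 control library (0.13).

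**Figure D2:**
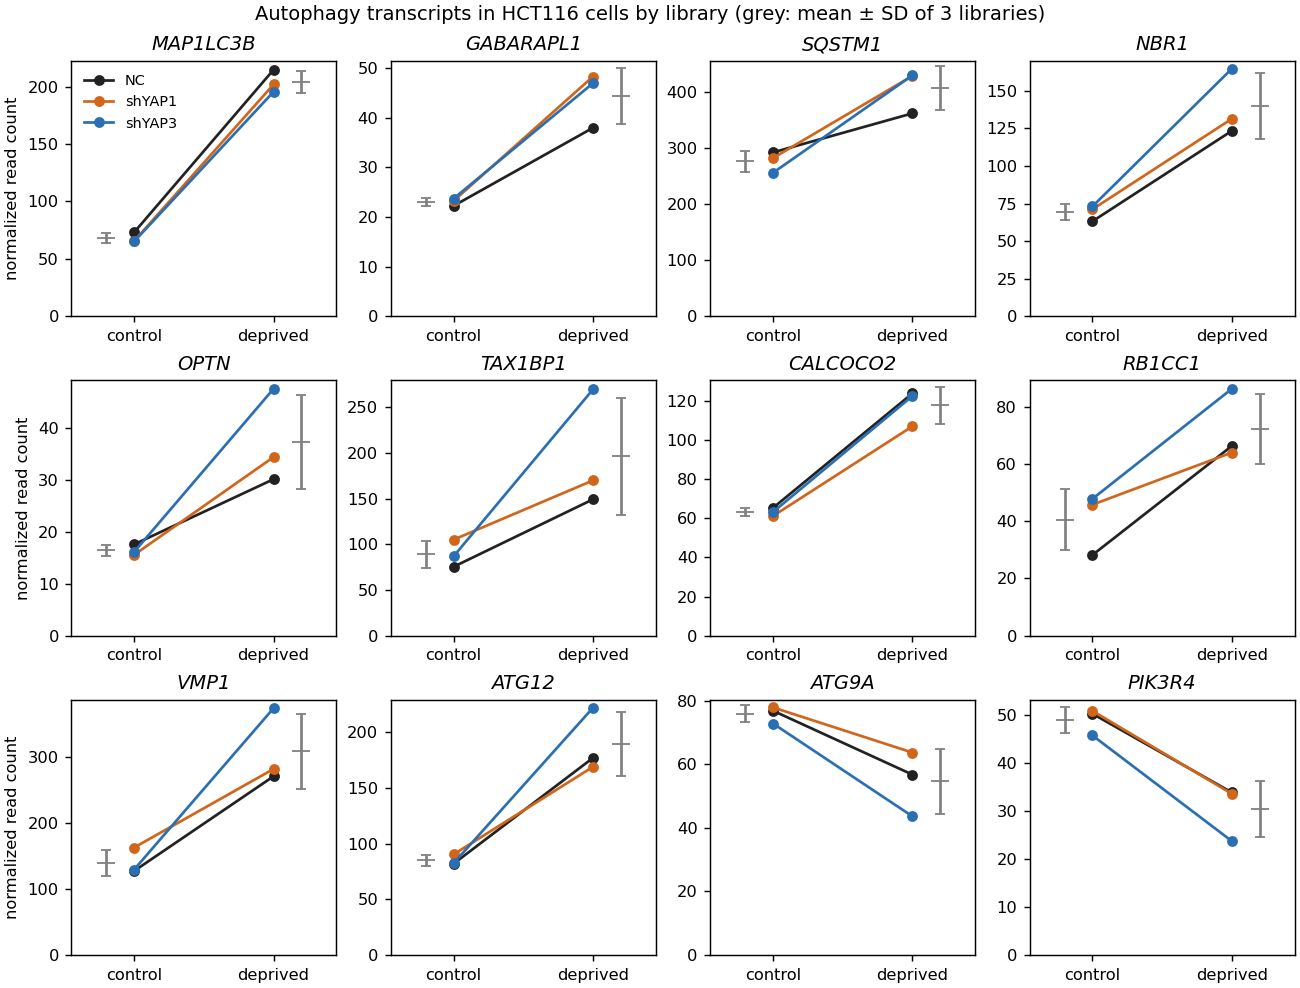
Normalized read count (vertical axis, from 0) of 12 members in control and deprived medium; coloured points joined by a line are the libraries of NC, shYAP1 and shYAP3 cells, and grey bars the mean ± SD of the 3 libraries of a medium. MAP1LC3B goes from 65.1 to 73.0 up to 195 to 215, while ATG9A and PIK3R4 slope downward in all 3 lines.

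The kinase complex that starts autophagy did not move as a unit. RB1CC1 (FIP200, ENSG00000023287), its scaffold, was at 28.2, 45.8 and 47.8 in control medium and at 66.4, 64.1 and 86.4 in deprived cells. The NC control library was the lowest and the media did not overlap (log2 0.84, SE 0.17, limma adjusted p = 0.0085). Without either NC library RB1CC1 did not pass (limma adjusted p = 0.070). The kinases ULK1 (log2 −0.27, limma adjusted p = 0.40) and ULK2 (−0.28, 0.14) and the adaptor ATG13 (0.33, 0.12) did not pass. ULK1 was at 15.8 to 17.9 in control medium and at 16.3, 17.9 and 8.53 in deprived cells, so its estimate rests on the shYAP3 deprived library, and without it was 0.03. ATG13 stood at 60.3 in the NC, 50.01 in the shYAP1 and 40.1 in the shYAP3 deprived library, against 38.8 to 39.4 in control medium. C12orf44 (ATG101, which stabilizes ATG13) was at 47.9, 55.5 and 45.8 and then at 54.8, 81.3 and 84.4. It was called higher (log2 0.53, SE 0.16, limma adjusted p = 0.030) although the NC deprived library lay below the shYAP1 control. It did not pass when rescaled (log2 0.23, limma adjusted p = 0.25), without the shYAP1 control (limma adjusted p = 0.11) or the shYAP3 control library (0.19).

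Within the class III phosphatidylinositol 3-kinase complex, 3 of 5 members rose and 1 fell, against 16.5% and 15.6% of all genes. ATG14 (ENSG00000126775), the subunit that directs the complex to autophagy, was at 24.2, 30.1 and 25.9 in control medium and at 38.8, 47.3 and 46.0 in deprived cells (log2 0.70, SE 0.13, limma adjusted p = 0.0068). It missed the threshold without the shYAP3 control library (limma adjusted p = 0.064). PIK3C3 (VPS34), the catalytic subunit, had a log2 change of 0.44 (limma adjusted p = 0.0495) with overlapping media. UVRAG, which replaces ATG14 in the endosomal form, had one of 0.47 (limma adjusted p = 0.041). PIK3C3 kept its call in 2 of 8 other analyses with all 6 libraries, those with the cell line as a block or with length and GC trends removed. It missed the threshold with edgeR (adjusted p = 0.058), no filter (0.063), no trend (0.058), a pseudocount of 0.1 (0.0502), quantile normalization (0.073) and rescaling (log2 0.14, 0.48). UVRAG missed it with no filter (0.068) and when rescaled (log2 0.20, 0.41). The adjusted p without 1 library reached 0.22 (PIK3C3, shYAP3 control) and 0.19 (UVRAG, shYAP1 control). BECN1 (Beclin 1), the scaffold, was at 60.1 to 69.1 and then at 76.0 to 86.5 and did not pass (log2 0.32, limma adjusted p = 0.093).

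PIK3R4 (VPS15, ENSG00000196455), the regulatory kinase-like subunit bound to VPS34, went the other way. It was at 50.2, 50.8 and 45.7 in control medium and at 33.8, 33.6 and 23.7 in deprived cells, with no overlap (log2 −0.69, SE 0.16, limma adjusted p = 0.014). PIK3R4 kept its call in all analyses with all 6 libraries, the rescaled values included (log2 −0.99). Without any 1 of the 2 NC and the 2 shYAP control libraries its adjusted p was 0.061 to 0.090 in limma.

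Among proteins that supply lipid to the growing membrane, VMP1 (ENSG00000062716), a lipid scramblase of the endoplasmic reticulum, had the largest rise. Its values were 127, 163 and 129 in control medium and 270.4, 281 and 373 after deprivation, with the shYAP3 library the highest (log2 1.13, SE 0.16, limma adjusted p = 0.0021). WIPI1 (ENSG00000070540), which reads the lipid made by VPS34, was at 11.6, 11.0 and 12.4 and then at 20.9, 16.5 and 21.0 (log2 0.69, SE 0.15, limma adjusted p = 0.012). WIPI1 missed the threshold in limma without any 1 of the 2 NC and the 2 shYAP control libraries (0.052 to 0.078) and when rescaled (0.085). Its relative WIPI2 did not pass (log2 0.17). ATG9A (ENSG00000198925), the membrane scramblase of the seed vesicles, was at 76.8, 77.9 and 72.8 in control medium and at 56.7, 63.7 and 43.6 in deprived cells. All deprived libraries were lower (log2 −0.48, SE 0.16, limma adjusted p = 0.048). ATG9A did not pass with no trend, with no filter, with length and GC content removed, or without any 1 of the 2 NC and the 2 shYAP control libraries (limma adjusted p 0.14 to 0.19). The lipid transfer proteins ATG2A (log2 −0.34) and ATG2B (0.03) did not pass, and both were lowest in the shYAP3 deprived library (6.58 and 12.2).

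The conjugation system, which attaches ATG8 proteins to lipid, had 4 of 10 members higher, against 16.5% of all genes. ATG12 (ENSG00000145782), the ubiquitin-like protein joined to ATG5, was at 81.9, 90.3 and 82.3 in control medium and at 177, 169 and 222 in deprived cells. Every deprived value was well above every control value (log2 1.14, SE 0.15, limma adjusted p = 0.0015). ATG5 (ENSG00000057663), its partner, was at 41.9, 55.1 and 47.8 and then at 66.4, 76.7 and 121 (log2 0.81, SE 0.18, limma adjusted p = 0.012). ATG3, the E2-like enzyme for ATG8 proteins, was at 33.5, 38.0 and 37.1 and then at 48.6, 51.2 and 67.0 (log2 0.59, limma adjusted p = 0.016). In ATG5 and ATG3 the shYAP3 deprived library was again the highest. Without any 1 of the 2 NC and the 2 shYAP control libraries the adjusted p in limma was 0.054 to 0.074 for ATG5 and 0.072 to 0.096 for ATG3.

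ATG4A, a protease that trims ATG8 proteins, overlapped between media (7.39, 9.45 and 9.77, then 8.73, 13.6 and 20.3) and lay at the threshold (log2 0.56, limma adjusted p = 0.0498). ATG4A kept its call in 4 of 8 other analyses with all 6 libraries and missed the threshold with edgeR (adjusted p = 0.051), no filter (0.085), length and GC trends removed (log2 0.29, 0.11) and rescaling (0.28, 0.25). Without the shYAP1 control library its adjusted p was 0.20. The main ATG4 protease, ATG4B, was at 51.1 to 52.5 in control medium and at 38.4, 44.9 and 39.1 in deprived cells. The media did not overlap, but it did not pass (log2 −0.35, limma adjusted p = 0.071), whereas quantile normalization (0.037) and rescaling (0.0082) called it lower. ATG4C, ATG4D, the E1-like ATG7, the E2-like ATG10 and ATG16L1, which completes the ATG12-ATG5 complex, did not pass and had log2 changes of 0.09 to 0.40. ATG7 kept nearly the same level in all 6 libraries, 20.8 to 25.3.

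Of the MiT/TFE factors, TFE3 (ENSG00000068323) was called higher. It was at 15.7, 13.8 and 15.4 in control medium and at 28.6, 22.9 and 17.8 in deprived cells, with NC the highest and shYAP3 close to the controls (log2 0.57, SE 0.16, limma adjusted p = 0.027). TFE3 did not pass when rescaled (log2 0.28, adjusted p = 0.28) or without any 1 of the 2 NC and the 2 shYAP control libraries (limma adjusted p 0.080 to 0.17). MITF was low, at 1.22 to 1.64 and then 1.92 to 2.77, from 30 to 52 reads a library. MITF did not pass (log2 0.45, limma adjusted p = 0.064) but did with the cell line as a block (0.0497), with no filter (0.048), with no trend (0.047) and with quantile normalization (0.036). TFEB did not pass (log2 −0.20, limma adjusted p = 0.44), at 2.39 to 3.32 in control medium and 1.81 to 3.19 after deprivation. These are transcript levels, and the factors are known to be regulated mainly by phosphorylation and entry into the nucleus, which RNA sequencing does not measure.

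Of the lysosomal members 3 of 10 rose and 0 fell, against 16.5% and 15.6% of all genes. Together the 10 took 0.0740% to 0.0768% of listed reads in control medium and 0.0694% to 0.0796% after deprivation, which overlap. MCOLN1 (TRPML1, ENSG00000090674), the lysosomal calcium channel, was at 10.1, 11.0 and 11.2 and then at 20.01, 15.3 and 15.3 (log2 0.60, SE 0.15, limma adjusted p = 0.020). NPC1 and NPC2, which export cholesterol from the lysosome, had log2 changes of 0.45 and 0.44 (limma adjusted p = 0.048 and 0.030). NPC2 was at 62.8, 63.3 and 61.8 in control medium and at 86.5, 79.0 and 91.1 in deprived cells, and NPC1 was at 44.9 to 53.8 and then at 79.8, 71.7 and 54.1. None of the 10 lysosomal members passed as higher when rescaled, where 6.11% of all genes did. With length and GC trends removed NPC2 had a log2 change of 0.043 (limma adjusted p = 0.79), and with quantile normalization one of 0.34 (0.057). NPC1 missed the threshold with edgeR (adjusted p = 0.053), no filter (0.061), no trend (0.056) and quantile normalization (0.087), and passed with length and GC trends removed (log2 0.67, 0.0016). Without 1 library the largest adjusted p in limma was 0.14 for MCOLN1 (NC deprived), 0.20 for NPC1 (NC deprived) and 0.16 for NPC2 (shYAP3 control).

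The other 7 lysosomal members did not pass. LAMP1, the main lysosomal membrane glycoprotein, was at 147 to 151 in control medium and at 183 to 202 after deprivation (log2 0.34, limma adjusted p = 0.065). CTSD and CTSL, the proteases cathepsin D and L, had log2 changes of 0.39 and 0.40 (limma adjusted p = 0.061 and 0.058). With length and GC trends removed LAMP1 (log2 0.59, adjusted p = 0.0022) and CTSD (0.37, 0.015) passed, and without the shYAP3 deprived library all 3 did. LAMP2, CTSB, the alpha-galactosidase GLA and the protective protein CTSA lay between −0.01 and 0.20 in log2 change. CTSA had the same mean in both media, 53.3 ± 1.96 and 53.3 ± 7.50 (SD, n = 3).

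The promoters of 43 of the 49 genes were found in the RefSeq table for GRCh38.p14, as 55 windows of 300 bases, from 250 before to 50 after the start. They were searched on both strands for CACGTG (the E-box), for TCACGTGA (the palindrome that MiT/TFE factors prefer, which contains CACGTG) and for TGATGNAA (the composite element of ATF4 and C/EBP factors). CACGTG was present in 6 of the 55 windows (10.9%) against 7.26% of all 35116 windows and 9.24% of those of genes tested. TCACGTGA was present in 4 (7.27%) against 0.98% of all windows and 1.65% of those of genes tested. TGATGNAA was in 0 of the 55, against 3.62% of all windows and 1.93% of those of genes tested. The 4 promoters with TCACGTGA belong to the members MCOLN1 and ATG3, which rose, and LAMP1 and CTSA, which did not pass. They are shown with the promoter of MAP1LC3B, the member with the largest change, which held none of the motifs. Each runs 5′ to 3′ on the gene's own strand from 250 bases before to 20 after the start, and capitals mark CACGTG and TCACGTGA.
MCOLN1, chr19:7522374-7522643, plus strand: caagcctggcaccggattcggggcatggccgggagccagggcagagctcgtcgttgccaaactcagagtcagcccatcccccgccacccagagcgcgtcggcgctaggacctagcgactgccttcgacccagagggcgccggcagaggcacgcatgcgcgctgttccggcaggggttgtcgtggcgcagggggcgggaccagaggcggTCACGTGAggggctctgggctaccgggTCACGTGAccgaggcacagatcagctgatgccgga
ATG3, chr3:112561943-112562212, minus strand: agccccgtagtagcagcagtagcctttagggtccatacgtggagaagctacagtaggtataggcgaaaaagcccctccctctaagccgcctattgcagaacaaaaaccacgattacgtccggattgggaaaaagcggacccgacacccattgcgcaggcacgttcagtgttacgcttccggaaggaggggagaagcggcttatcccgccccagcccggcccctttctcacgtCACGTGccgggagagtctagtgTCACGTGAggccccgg
LAMP1, chr13:113296989-113297258, plus strand: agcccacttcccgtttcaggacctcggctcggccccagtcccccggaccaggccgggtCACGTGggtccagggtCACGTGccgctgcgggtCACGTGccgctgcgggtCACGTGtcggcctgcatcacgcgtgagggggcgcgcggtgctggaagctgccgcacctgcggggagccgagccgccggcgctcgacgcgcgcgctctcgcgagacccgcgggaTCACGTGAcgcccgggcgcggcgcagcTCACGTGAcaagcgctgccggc
CTSA, chr20:45891085-45891354, plus strand: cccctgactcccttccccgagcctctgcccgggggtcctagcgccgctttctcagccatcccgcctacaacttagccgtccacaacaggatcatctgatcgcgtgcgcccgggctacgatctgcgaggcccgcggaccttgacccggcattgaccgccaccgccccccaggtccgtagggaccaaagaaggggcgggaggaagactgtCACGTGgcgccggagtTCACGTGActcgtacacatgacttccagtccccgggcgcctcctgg
MAP1LC3B, chr16:87392086-87392355, plus strand: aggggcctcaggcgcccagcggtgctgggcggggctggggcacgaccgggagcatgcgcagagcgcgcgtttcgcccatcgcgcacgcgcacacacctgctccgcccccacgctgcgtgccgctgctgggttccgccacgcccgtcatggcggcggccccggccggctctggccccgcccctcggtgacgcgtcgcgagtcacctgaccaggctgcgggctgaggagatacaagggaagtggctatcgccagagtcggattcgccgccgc
In MCOLN1 both matches are TCACGTGA, starting 42 and 15 bases before the start. LAMP1 holds 6 matches to CACGTG, and its TCACGTGA matches, which contain some of them, start 29 and 2 bases before the start. CTSA has a TCACGTGA starting 26 bases before the start, and in ATG3 it starts at base 5 after it. A match describes these letters and does not show binding, and the windows hold no measured binding data.

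YAP knockdown changed no member by the test used. With limma over both media, 0 of 47 members were higher and 0 lower in shYAP cells, and 0% of all genes were higher and 0.00815% lower, the gene YAP1 itself (log2 −2.63, limma adjusted p = 0.00082). At an unadjusted p under 0.05 there were 4 members (8.51%) against 7.32% of all genes, and edgeR called 0 members with 5 under that unadjusted level. The 4 were higher in shYAP cells: ATG4A (log2 0.60, 95% interval 0.14 to 1.05), RB1CC1 (0.44, 0.03 to 0.85), PIK3C3 (0.40, 0.04 to 0.75) and CTSL (0.37, 0.04 to 0.71). None of these passes after adjustment (limma adjusted p = 0.58 each). RB1CC1 stood at 28.2 in the NC control against 45.8 and 47.8 in the shYAP control libraries, but at 66.4 in the NC deprived library against 64.1 and 86.4. For MAP1LC3B the difference was −0.14 (95% interval −0.43 to 0.16) and for SQSTM1 0.06 (−0.28 to 0.40). The model counted the libraries of a line in both media as independent, although 1 NC line stood against 2 shYAP lines. Intervals of this width do not show that the levels were equal.

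The response itself was compared between genotypes with an interaction term. In limma 0 of 47 members passed and 0% of all genes did in either direction. At an unadjusted p under 0.05 there were 0 members and 111 genes (0.905%). With edgeR 0 members were called too, and 0 lay under that unadjusted level. So small a share of genes lies below the 0.05 that such p-values give where nothing differs. Counts of 0 here do not show that the responses were equal. The spread in this model comes from the shYAP libraries alone, since NC has 1 library per medium. The estimates for members ran from −0.59 (ATG2B) to 0.56 (OPTN). The log2 change of MAP1LC3B was 1.54, 1.61 and 1.57 in the 3 lines, and its difference between genotypes was 0.05 (95% interval −0.62 to 0.72). For OPTN the changes were 0.75, 1.10 and 1.5 (difference 0.56, −0.31 to 1.42) and for TAX1BP1 0.98, 0.69 and 1.62 (0.18, −0.84 to 1.20). The 2 constructs thus lay further from each other than their mean lay from NC in TAX1BP1.

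The count of 0 rested on both deprived shYAP libraries. Without either of them, every group but the shYAP controls kept 1 library. The spread then came from the shYAP control libraries alone, and no deprived library was replicated within its genotype. Without the shYAP1 deprived library 6 members passed as higher (ATG4A, ATG5, GABARAP, GLA, OPTN and TAX1BP1) and 4 as lower (ATG13, ATG2A, ATG2B and ULK1), with 12.5% and 9.8% of all genes. That fit sets the shYAP3 deprived library, which stood apart by transcript length, against the NC library alone. Calls from single deprived libraries cannot tell a genotype difference from a difference between libraries, so none is concluded from either fit. Without the shYAP3 deprived library 1 member passed, RB1CC1 (log2 −0.76, limma adjusted p = 0.0071), which is 1 of 47 lower with 0.677% of all genes higher and 1.52% lower. Of the members, 35 of 47 went upward with deprivation in NC cells, 42 with shYAP1 and 37 with shYAP3, while 33 went upward and 5 downward in all 3 lines, against 35.1% and 31.1% of all genes tested. In single lines 52.2% to 52.8% of all genes tested went upward.

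**Figure D3:**
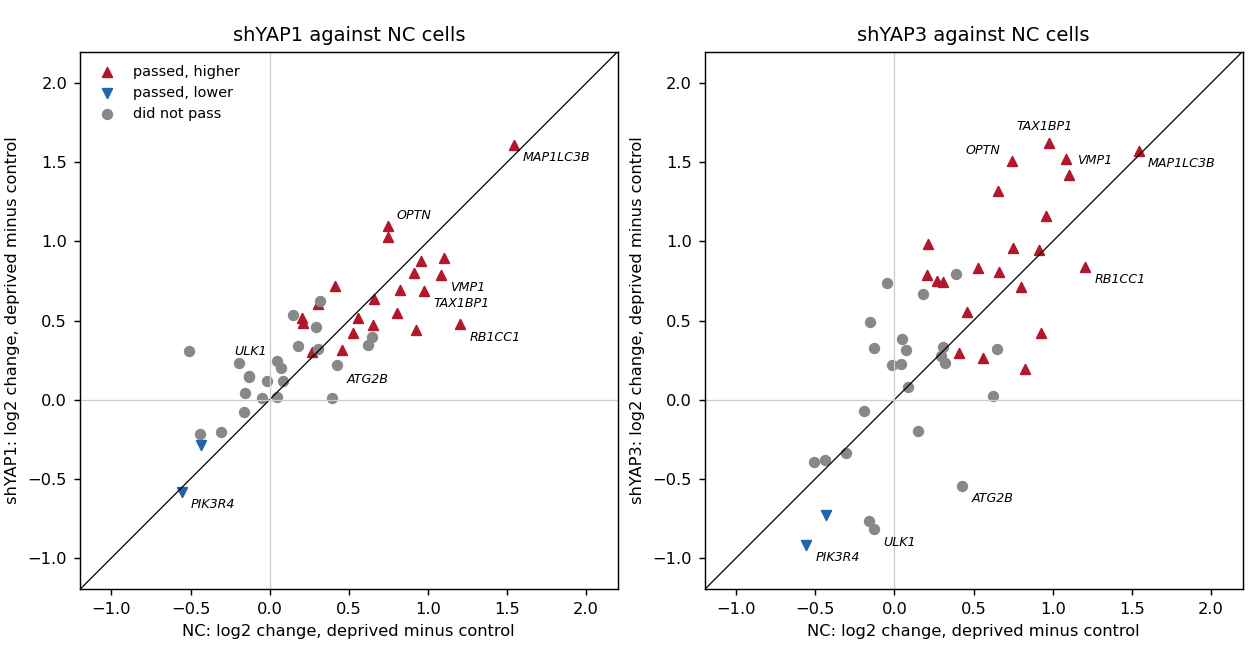
Log2 change after deprivation (log2(value + 1) scale) of each of the 47 members in shYAP1 (left) and shYAP3 cells (right) against NC cells; each point is 1 gene from 1 library per medium, the line marks equal change, and triangles passed the test over all lines. MAP1LC3B lies on the line in both panels, whereas ATG2B lies at 0.43 for NC, 0.22 for shYAP1 and −0.55 for shYAP3.

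Further genes of the pathway were taken from 6 lists chosen by name, with earlier results of these data known. Of these genes 143 were tested. In limma 23 of them (16.1%) were higher and 11 (7.69%) lower, against 16.5% and 15.6% of all genes, and their median log2 change was 0.12. Of these calls 3 higher (DDIT3, ATF4 and CCPG1) and 1 lower (TRIM25) also passed without each library in turn. At most 3.86% of all genes can have done so as higher and 4.79% as lower, the smallest shares with 1 library left out. Subunits of the V-ATPase, the proton pump that acidifies the lysosome, had 4 of 18 higher and 0 lower, with a median of 0.15 that became −0.15 when rescaled and −0.01 with length and GC trends removed. The median of all genes was 0.05 as deposited, −0.24 when rescaled and 0.01 with those trends removed. ATP6V1D (32.6, 37.6 and 32.6, then 45.4, 59.8 and 98.4) and ATP6V1E1 (88.4, 97.4 and 88.4, then 118, 146 and 226) were highest in the shYAP3 deprived library, and ATP6V1F and ATP6V1G1 were the others called. Without the library that mattered most, the adjusted p of these 4 in limma was 0.082 to 0.18. Other lysosomal hydrolases and membrane proteins had 3 of 44 higher and 2 lower (median 0.08, and −0.23 when rescaled). HEXA, a subunit of beta-hexosaminidase, was the first of these by p (log2 0.53, limma adjusted p = 0.030, and up to 0.17 with 1 library left out). CTSH and LAPTM4A were also higher, and CTSK and ARSB lower.

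In the lysosomal control of the growth kinase mTORC1, 2 of 24 genes were higher and 3 lower, against 16.5% and 15.6% of all genes. Their median was 0.07 (−0.21 rescaled, −0.08 with length and GC trends removed), and that of all genes 0.05 (−0.24 and 0.01). RPTOR (Raptor), which presents substrates to mTOR, was at 85.7, 74.2 and 79.2 in control medium and at 53.5, 51.5 and 31.6 in deprived cells (log2 −0.83, limma adjusted p = 0.012). MTOR, the kinase, went from 123, 110.2 and 109.6 to 96.7, 77.9 and 52.5 (log2 −0.63, limma adjusted p = 0.025). RHEB, the GTPase that activates mTORC1, was higher (log2 0.60, limma adjusted p = 0.018), as was LAMTOR3, and FNIP2 was lower. With 1 library left out the adjusted p in limma reached 0.069 for RPTOR, 0.12 for MTOR and 0.10 for RHEB. Genes for fusion of autophagosomes with lysosomes had 1 of 17 higher, VPS11, and 1 lower, VPS33A, with a median of 0.05 that became −0.03 with quantile normalization and −0.25 when rescaled; both genes belong to the tethering complexes of the late endosome.

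The list of organelle receptors, which also held NCOA4 and TRIM25, not organelle receptors themselves, had 5 of 18 higher and 2 lower. Of all genes tested, 16.5% were higher and 15.6% lower. The list's median of 0.35 became 0.16 with quantile normalization and 0.05 when rescaled, where 2 were higher and 3 lower. With the rescaling 6.11% of all genes were higher and 31% lower, and their median was −0.24. The list's median lay 0.31 above that of all genes as deposited and 0.29 above it when rescaled. CCPG1, a receptor for endoplasmic reticulum, was at 3.87, 7.99 and 6.27 and then at 10.8, 14.2 and 17.6 (log2 1.13, limma adjusted p = 0.0023). SEC62, which removes surplus reticulum after stress, was at 61.6, 83.8 and 73.3 and then at 106, 121 and 201 (log2 0.91, limma adjusted p = 0.0095), and BNIP3, a mitochondrial receptor, was also higher (log2 0.70, limma adjusted p = 0.026). ATL3, another receptor for tubular reticulum, fell from 73.7, 72.3 and 60.6 to 44.4, 43.2 and 40.3 (log2 −0.68, limma adjusted p = 0.0077). NCOA4 and PHB2 were also higher, and TRIM25 lower. With 1 library left out the adjusted p in limma reached 0.060 for SEC62, 0.13 for BNIP3 and 0.070 for ATL3. Among other regulators 8 of 22 were higher and 3 lower (median 0.29, and −0.01 when rescaled). This median lay 0.25 above that of all genes as deposited and 0.23 above it when rescaled. The stress factors DDIT3 (CHOP) and ATF4, known to activate autophagy genes, had log2 changes of 5.62 and 1.18 (limma adjusted p = 2.1e-05 and 0.0010). ZKSCAN3, described as a repressor of autophagy genes, fell from 11.5, 10.7 and 10.1 to 5.27, 5.17 and 6.45 (log2 −0.83, limma adjusted p = 0.0062, and up to 0.054 with 1 library left out), and SMCR8 and TP53INP1 were the others lower.

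**Figure D4:**
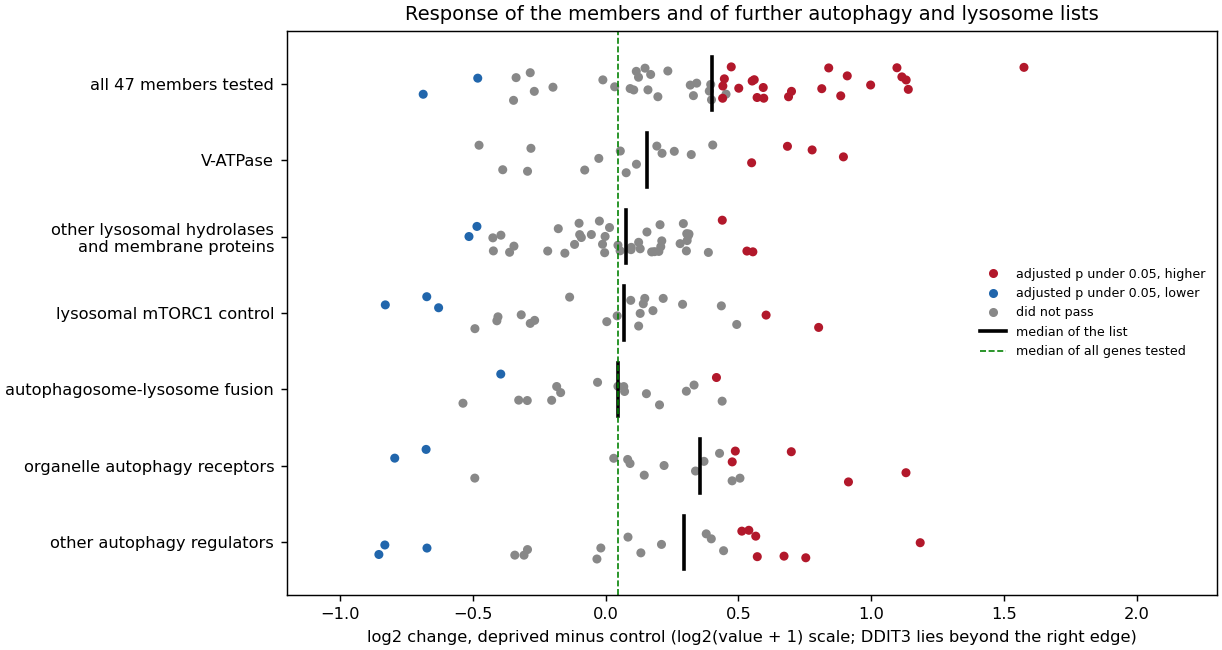
Log2 change after deprivation (horizontal axis, log2(value + 1) scale) of the 47 members and of 143 genes of 6 further lists; each point is 1 gene, coloured by the limma call, black bars are list medians and the dashed line the median of all genes tested. The members' median lies at 0.40, the lysosomal hydrolases at 0.08 and the fusion genes at 0.05, on the median of all genes.

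Members called higher had a median transcript length of 3468 bases and a median GC content of 44.8%, against 4030 bases and 51.2% for members without a call and 3725 bases and 48.6% for all genes tested. The part of length and GC content in the calls was tested by removing their trend from each library, after which 24 members were higher and 1 lower, with 18.4% and 18.3% of all genes. ATG13, BECN1, CTSD, LAMP1 and WIPI2 gained a call as higher there, whereas ATG4A, GABARAP and NPC2 lost theirs and ATG9A its call as lower. In the reference annotation 21 of the 49 genes share exon bases with another gene, most of them on the opposite strand, such as SQSTM1 with MRNIP, VMP1 with PTRH2 and ATG12 with AP3S1. Whether the counting used strand was not given in the sources used here, so reads of such pairs cannot be told apart.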

How the data were processed

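RNA sequencing libraries (6) were compared between media and genotypes. Per the labels' protocols, mRNA was taken with oligo-dT beads and fragmented. The submitters' processing notes name hg19, Bowtie2 and BWA without roles. The deposited signal is a normalized read count per gene; its scaling and counting are not given in the sources used here. Members and lists were chosen with earlier results of these data known, and every member is given by its values or within a range.

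A limma model (version 3.58.1 under R 4.3.3, mean-variance trend on) was fitted to log2(value + 1). The 12263 genes that reached 1 in 2 or more libraries entered. Response and knockdown came from genotype plus medium, the interaction from 1 mean per genotype and medium. P-values were adjusted by Benjamini-Hochberg over all genes and called at 0.05; fold changes understate low genes. The design allowed counts or normalized values; edgeR 4.0.16 on recovered reads (100% whole, tolerance 0.01 read) was an alternative. Libraries were paired by line, but only the run with the cell line as a block used this pairing. Deviations from the mean of a medium correlated between the libraries of a line at 0.46 (NC), 0.01 (shYAP1) and 0.33 (shYAP3). The shYAP1 control library correlated best with the shYAP3 deprived library, not with that of its own line. Length and GC content came from GENCODE v29 for 98.0% of genes, from the longest transcript.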

Additional observations from a re-analysis of the deposited data

How the results depend on the processing

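All 22 members called higher kept their sign in every alternative run. Scaled to listed values, 10 members were higher and 4 lower, and 749 genes were higher and 3802 lower. The lower members numbered 1 with no filter, with no trend and with length and GC trends removed. Leaving out each library in turn gave 9 to 28 higher and 0 to 5 lower members, and 473 to 2874 higher and 587 to 2432 lower genes. For knockdown it gave 0 to 1 higher and 0 to 4 lower genes, and for the difference of the response 0 to 6 higher and 0 to 4 lower members, with 0 to 1533 higher and 0 to 1202 lower genes. Without an NC library the difference of the response could not be fitted. Where a group kept 1 library, its spread was taken from the others. The 2 response runs without an NC library thus used the shYAP libraries alone and gave the same log2 changes. With the cell line as a replicate block, 23 members were higher and 2 lower (2324 and 2129 genes); MITF gained a call and no other member's call changed.

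Some members without a call changed sign, and for the cause of these changes nothing was tested. Scaling to listed values also moved the median of all genes, from 0.05 to −0.24. Scaled to listed values, the log2 change was −0.035 for ATG10, −0.21 for ATG16L1, −0.25 for ATG2B, −0.13 for ATG4D, −0.19 for ATG7, −0.19 for CTSB, −0.15 for GABARAPL2, −0.17 for GLA, −0.11 for LAMP2 and −0.13 for WIPI2. With length and GC trends removed it was 0.12 for ATG2A, −0.081 for ATG4C, 0.11 for CTSA, −0.16 for GABARAPL2, −0.18 for GLA, −0.095 for LAMP2 and 0.12 for ULK1, and quantile normalization gave −0.048 for CTSB. Leaving out each library in turn, the range was −0.014 to 0.20 for ATG16L1, −0.16 to 0.23 for ATG2B, −0.094 to 0.41 for ATG4D, −0.13 to 0.080 for CTSA, −0.015 to 0.26 for GLA and −0.53 to 0.035 for ULK1. Tested members had 30 to 7398 reads in a library (median 874), so that counting error was largest for MITF and TFEB.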
